A study of Arabidopsis thaliana with 6 samples.

Results

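Nuclear photosynthesis genes of Arabidopsis thaliana were followed in the root apex of seedlings that had grown in light. The list holds 37 genes, chosen by gene identifier: 13 LHCB and 4 LHCA antenna genes, 4 genes of photosystem II, 7 of photosystem I, the plastocyanin gene PETE2, 4 Rubisco small subunit genes (RBCS), Rubisco activase (RCA), and the Calvin cycle genes GAPA1, GAPB and PRK. Of these, 34 had a line of their own in the gene table, on 35 of its 33233 loci, because PSAD1 had 2. PSAD2, GAPA1 and GAPB appeared only on loci that the table joins with a neighbouring gene, and their values are given apart.

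The RNA came from wild-type (WT) roots of the Columbia accession, Col-0, at 8 days, from plates kept upright under constant light at 19 °C, and seedlings were stored in RNAlater before dissection. Zone II was a 1.5 mm section with elongating and hair-forming cells, and zone I was the apical 0.5 mm with the cap and dividing cells. Each had 3 RNA-seq libraries, 6 in all, prepared from low amounts of total RNA by template switching and tagmentation, which does not mark the strand. No label says how many seedlings a library pooled or whether libraries came from separate cultures. Spread between libraries may therefore be technical, and the q-values cannot be read as covering the spread between plants. The deposited comparison calls its conditions experiment and control, and no label or header used here ties either name to a zone. Of the root markers given below, the apical ones were lower in the experiment condition and the subapical ones higher. That is the direction of zone II over zone I, but the names were not assigned to zones. The comparison gives 1 value per condition and none per library. Its headers name no unit; the program behind it, Cuffdiff, writes FPKM, fragments scaled by transcript length and library size, and values are called FPKM here. The depth of the libraries is therefore unknown and no SD stands beside a value.

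In chloroplasts, LHCB proteins gather light for photosystem II and LHCA proteins for photosystem I. Photosystem II takes electrons from water, plastocyanin carries them to photosystem I, and the energy gained drives the Calvin cycle, in which Rubisco fixes CO2. Roots hold mostly non-green plastids, but Arabidopsis roots can make some chlorophyll and chloroplasts in light, which the transcription factors HY5 and GLK2 are known to promote.

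Of the 33 photosynthesis loci that the authors tested, 21 (63.6%) were called higher in the experiment condition at a deposited q under 0.01, and 0 were called lower by Cuffdiff, with 1 lower at q under 0.05 and at an unadjusted p under 0.05 (LHCB1.2). Over all 18050 tested loci, 22.3% were called higher and 21.2% lower, 43.6% in either direction. At q under 0.05, 24 of the 33 loci were higher, beside 27.8% of all, and at q under 0.001 there were 16, beside 17.6% of all. The ratio of experiment over control was above 1 for 31 of the 33 loci, with a median log2 ratio of 2.98 in the authors' deposited table, beside -0.08 over all tested loci. LHCB2.2 and PRK, at 0.483 and 0.183 FPKM in the experiment condition of the authors' deposited table, were not tested by the authors. LHCB2.2 had 0.0385 FPKM in control of the authors' deposited table. The median level of the 35 loci was 23.6 FPKM in the experiment condition and 3.95 FPKM in control, while the median over all tested loci was 8.59 FPKM in the experiment condition and 7.41 FPKM in control. At or above 10 FPKM were 23 of the 35 loci in the experiment condition and 7 in control. Among tested loci ranked by level, the median photosynthesis locus stood at the percentile 72.8 in the experiment condition and 34.4 in control. In these bulk sections, fewer cells of a type and less RNA per cell cannot be told apart. The smallest q in the authors' deposited table is 0.000177, which 5093 loci share, and it is called the smallest q here.

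**Figure D1:**
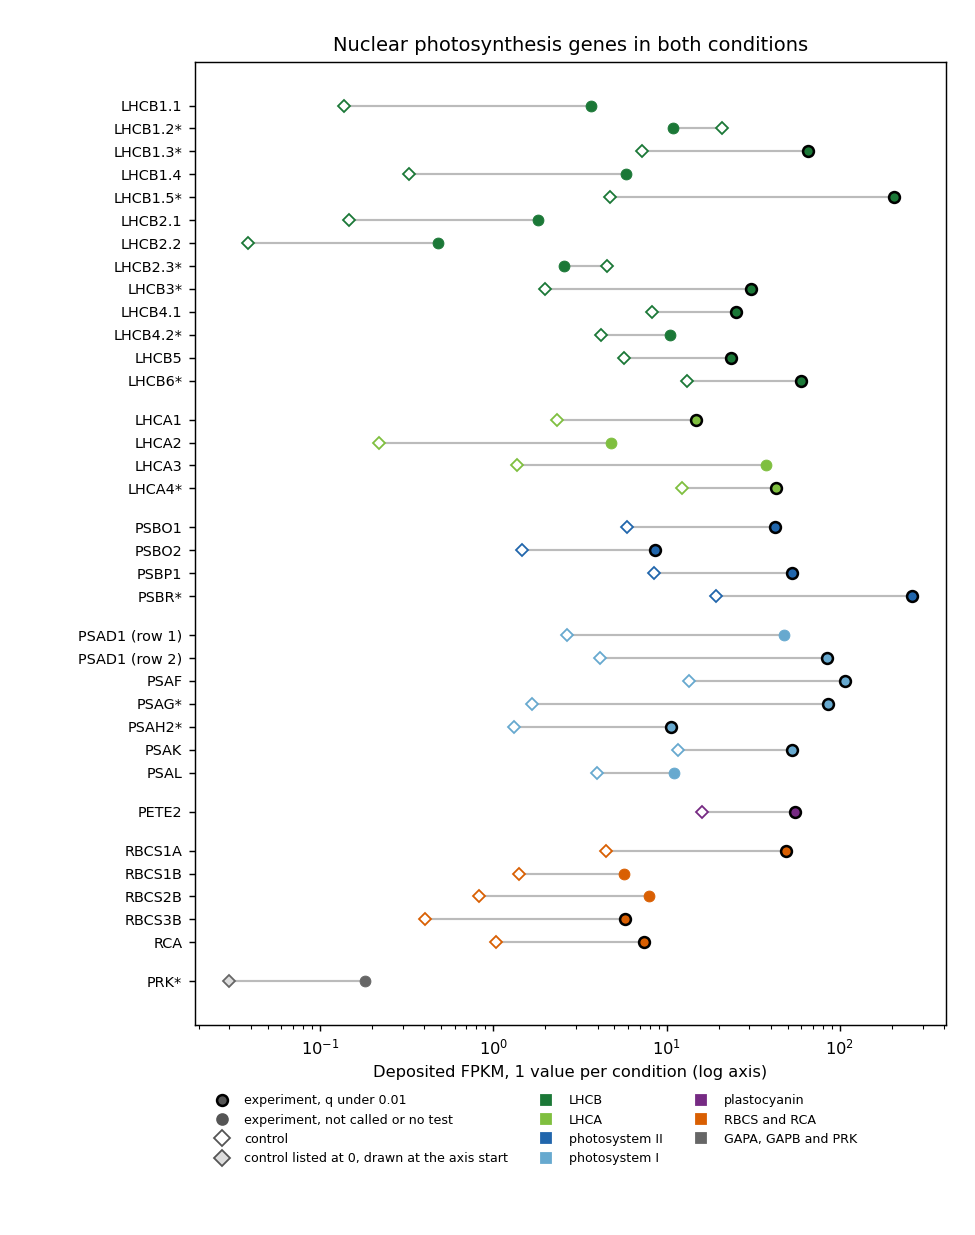
Deposited FPKM of each photosynthesis locus (horizontal log axis) in the experiment condition (circles, ringed where called higher) and in control (open diamonds), by complex; an asterisk marks a locus that also covers another coding gene. Circles lie right of diamonds except for LHCB1.2 and LHCB2.3.

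Levels within the LHCB antenna family spread widely, and the family held the 2 loci with ratios below 1. Of 12 tested LHCB loci 6 were called higher, beside 22.3% of all tested loci, with a median log2 ratio of 2.68 in the authors' deposited table. LHCB1 and LHCB2 encode the chlorophyll-binding proteins of the main trimeric antenna. LHCB1.5 (AT2G34420) had 205 FPKM in the experiment condition and 4.71 FPKM in control, and the authors' deposited table gave a log2 ratio of 5.45 at the smallest q. It was the highest of the LHCB1 copies in the experiment condition, and its level there stood at the percentile 95.1. LHCB1.3 (AT1G29930) had 65.5 FPKM in the experiment condition and 7.25 FPKM in control, with a log2 ratio of 3.18 at the smallest q in the authors' deposited table. LHCB1.1 (AT1G29920) had 3.67 FPKM in the experiment condition and 0.138 FPKM in control, and LHCB1.4 (AT2G34430) had 5.84 FPKM in the experiment condition and 0.325 FPKM in control of the authors' deposited table. Their log2 ratios of 4.74 (q = 0.119) and 4.17 (q = 0.0568) missed the threshold in the authors' deposited table, at control levels under 1 FPKM. LHCB1.2 (AT1G29910) went the other way, with 10.8 FPKM in the experiment condition and 20.8 FPKM in control, a log2 ratio of -0.94 and q = 0.0106 in the authors' deposited table.

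The locus of LHCB1.2 spans 5246 bases, chr1:10468054-10473299 on TAIR10, and covers most of CARB, a carbamoyl phosphate synthetase gene on the other strand. CARB has a line of its own, with 2.42 FPKM in the experiment condition and 11.5 FPKM in control, and was called lower at q = 0.000338 in the authors' deposited table. The LHCB1.5 locus, chr2:14518406-14523568, likewise covers RWA3, a cell wall acetylation gene, at 10 FPKM in the experiment condition and 8.9 FPKM in control of the authors' deposited table. LHCB1.3 lies with NRPA2, an RNA polymerase I subunit gene, at 1.43 FPKM in the experiment condition and 6.86 FPKM in control of the authors' deposited table. Of the photosynthesis loci, 12 covered another coding gene in this way, each time on the other strand, and 23 did not. The part of these neighbours in the values was not tested. Without those 12, 13 of 22 tested loci were called higher, beside 22.3% of all tested loci. All 22 ratios were above 1, with a median log2 ratio of 2.91 in the authors' deposited table.

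The LHCB1 copies are much alike, and whether the authors' counting moved reads between them was not tested. Pairwise identity of their coding sequences ran between 86.7% and 96.4%, and of their proteins between 95.1% and 100%, with no amino acid difference between LHCB1.1 and LHCB1.2. No 150-base stretch, the read length in the labels, was shared in full by a pair of LHCB1 coding sequences. Of 75-base stretches 17.7% were shared for LHCB1.1, 5.75% for LHCB1.2, 11.9% for LHCB1.3 and 12.4% each for LHCB1.4 and LHCB1.5. Bases 184 to 273 of the LHCB1.1 coding sequence and the bases aligned to them in the other copies, from RefSeq TAIR10.1, show what sets the copies apart. Capitals mark the 22 positions of the 90 at which the 5 copies are not all the same. LHCB1.1, LHCB1.2 and LHCB1.3 lie on chromosome 1, and LHCB1.4 and LHCB1.5 on chromosome 2.
LHCB1.1: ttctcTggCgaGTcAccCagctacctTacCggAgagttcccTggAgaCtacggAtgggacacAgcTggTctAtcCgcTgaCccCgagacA
LHCB1.2: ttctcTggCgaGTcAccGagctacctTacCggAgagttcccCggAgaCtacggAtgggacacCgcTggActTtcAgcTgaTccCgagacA
LHCB1.3: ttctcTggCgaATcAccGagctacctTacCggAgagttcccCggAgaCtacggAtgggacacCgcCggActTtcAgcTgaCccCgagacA
LHCB1.4: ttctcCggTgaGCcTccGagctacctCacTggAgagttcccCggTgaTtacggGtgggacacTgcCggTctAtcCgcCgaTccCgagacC
LHCB1.5: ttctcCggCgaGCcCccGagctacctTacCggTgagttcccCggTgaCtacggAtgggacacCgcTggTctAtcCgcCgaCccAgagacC
In this stretch LHCB1.2 and LHCB1.3 differ from LHCB1.1 at 7 and 8 positions, LHCB1.5 at 11 and LHCB1.4 at 16. LHCB1.5 is the copy with the highest level in the experiment condition, and LHCB1.2 the copy with a ratio below 1.

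In the experiment condition the 3 LHCB2 genes stood below all 5 LHCB1 genes, while in control the levels overlapped. LHCB2.1 (AT2G05100) had 1.82 FPKM in the experiment condition and 0.147 FPKM in control, with a log2 ratio of 3.63 and q = 0.134, above the threshold, in the authors' deposited table. LHCB2.3 (AT3G27690) had 2.55 FPKM in the experiment condition and 4.56 FPKM in control, with a log2 ratio of -0.84 and q = 0.415 in the authors' deposited table. Its locus covers AT3G27700, which had 2.58 FPKM in the experiment condition and 3.97 FPKM in control of the authors' deposited table. LHCB2.1 and LHCB2.2 (AT2G05070) are 96.6% identical over their coding sequences and share 28.2% of the 75-base stretches of LHCB2.2.

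LHCB4, LHCB5 and LHCB6 encode the minor antenna proteins, which link the trimers to the photosystem II core. Of their 4 loci 3 were called higher, beside 22.3% of all tested loci. LHCB3, another trimer protein (AT5G54270), had 30.6 FPKM in the experiment condition and 1.98 FPKM in control, with a log2 ratio of 3.95 and q = 0.00388 in the authors' deposited table. ATM2, a myosin gene within the same locus, was also called higher, at 5.64 FPKM in the experiment condition and 1.98 FPKM in control of the authors' deposited table. In the isoform lines LHCB3 alone had 39.7 FPKM in the experiment condition and 1.46 FPKM in control. It did not pass there (q = 0.181 in the authors' deposited table). LHCB6 (AT1G15820) had 59.7 FPKM in the experiment condition and 13.1 FPKM in control, with a log2 ratio of 2.19 and q = 0.00501 in the authors' deposited table. Its neighbour AT1G15810 moved the other way, at 19.9 FPKM in the experiment condition and 46.7 FPKM in control of the authors' deposited table. LHCB5 (AT4G10340) had 23.6 FPKM in the experiment condition and 5.7 FPKM in control, and LHCB4.1 (AT5G01530) had 25.2 FPKM in the experiment condition and 8.2 FPKM in control of the authors' deposited table. Neither locus covers another gene. Their log2 ratios of 2.05 and 1.62 passed at the smallest q in the authors' deposited table. LHCB4.2 (AT3G08940), 81.1% identical to LHCB4.1 over the coding sequence, had 10.5 FPKM in the experiment condition and 4.2 FPKM in control and did not pass (q = 0.293 in the authors' deposited table). AT3G08943, within the LHCB4.2 locus, had 9.16 FPKM in the experiment condition and 24.5 FPKM in control of the authors' deposited table.

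All 4 LHCA loci had higher values in the experiment condition, and 2 were called, beside 22.3% of all tested loci called higher. LHCA4 (AT3G47470) had 42.8 FPKM in the experiment condition and 12.3 FPKM in control, and LHCA1 (AT3G54890) had 14.7 FPKM in the experiment condition and 2.34 FPKM in control, with log2 ratios of 1.80 and 2.65 at the smallest q in the authors' deposited table. Their proteins pair up in the belt of antenna beside photosystem I. LHCA3 (AT1G61520) had 37.3 FPKM in the experiment condition and 1.37 FPKM in control, a log2 ratio of 4.76 that missed the threshold with q = 0.0157 in the authors' deposited table. LHCA2 (AT3G61470) had 4.75 FPKM in the experiment condition and 0.218 FPKM in control, with a log2 ratio of 4.44 and q = 0.0714 in the authors' deposited table. The ratios of the uncalled pair were thus larger than those of the called pair, at lower control levels. A further line that joins LHCA3 with AT1G61665 had 2.29 FPKM in the experiment condition and 2.25 FPKM in control of the authors' deposited table.

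In photosystem II all 4 loci were called higher, beside 22.3% of all tested loci, with a median log2 ratio of 2.74 in the authors' deposited table. PSBR (AT1G79040), a small subunit near the water-splitting site, had 259 FPKM in the experiment condition and 19.2 FPKM in control of the authors' deposited table, the highest experiment level of the listed genes. Its log2 ratio was 3.76 at the smallest q in the authors' deposited table, and RECA1, a plastid recombinase gene in the same locus, stood at 4.42 FPKM in the experiment condition and 5.17 FPKM in control. PSBO1 (AT5G66570) and PSBO2 (AT3G50820) encode forms of the protein that steadies the manganese cluster, and PSBP1 (AT1G06680) a partner of it. PSBO1 had 42.2 FPKM in the experiment condition and 5.93 FPKM in control, with a log2 ratio of 2.83 in the authors' deposited table. PSBO2, 83.6% identical over the coding sequence, was lower in both, at 8.56 FPKM in the experiment condition and 1.46 FPKM in control, with a log2 ratio of 2.55 in the authors' deposited table. The copies therefore had close ratios at different levels. PSBP1 had 52.7 FPKM in the experiment condition and 8.42 FPKM in control, with a log2 ratio of 2.65 in the authors' deposited table.

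Of 7 tested photosystem I loci 5 were called higher, beside 22.3% of all tested loci. Their median log2 ratio was 3.01 in the authors' deposited table. PSAG (AT1G55670), a peripheral subunit on the antenna side, had the largest ratio of the listed genes, with 85.8 FPKM in the experiment condition and 1.67 FPKM in control and a log2 ratio of 5.68 at the smallest q in the authors' deposited table. The annotation places AT1G55673 on the other strand inside PSAG, at chr1:20802670-20803449, and 71% of the 150-base stretches of PSAG also occur in it. The table gives AT1G55673 no line, and without strand their reads cannot be told apart. PSAF (AT1G31330), which docks plastocyanin, had 107 FPKM in the experiment condition and 13.5 FPKM in control, and PSAK (AT1G30380), another peripheral subunit, had 53 FPKM in the experiment condition and 11.6 FPKM in control of the authors' deposited table. Their log2 ratios of 2.98 and 2.19 passed at the smallest q in the authors' deposited table. PSAD1 (AT4G02770), a ferredoxin-docking subunit, had 2 lines for the same coordinates. One had 83.7 FPKM in the experiment condition and 4.14 FPKM in control and passed at the smallest q in the authors' deposited table; the other had 47.6 FPKM in the experiment condition and 2.66 FPKM in control and did not (q = 0.208 in the authors' deposited table). The lines agree in direction and size, with log2 ratios of 4.34 and 4.16 in the authors' deposited table, and differ in the call.

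PSAH2 (AT1G52230), which binds the mobile antenna, had 10.6 FPKM in the experiment condition and 1.32 FPKM in control, with a log2 ratio of 3.01 and q = 0.00886 in the authors' deposited table. ROPGEF11, a GTPase exchange factor gene in the same locus, was also called higher, at 22.6 FPKM in the experiment condition and 8.39 FPKM in control of the authors' deposited table. In the isoform lines PSAH2 alone had 8.52 FPKM in the experiment condition and 2.76 FPKM in control. It did not pass there (q = 0.574 in the authors' deposited table), and the locus is still counted among the 21 called. PSAL (AT4G12800), next to PSAH2 in the complex, had 11.1 FPKM in the experiment condition and 3.95 FPKM in control and missed the threshold (log2 ratio 1.49, q = 0.014 in the authors' deposited table). PETE2 (AT1G20340), the major plastocyanin gene, had 55.4 FPKM in the experiment condition and 16 FPKM in control, with a log2 ratio of 1.79 at the smallest q in the authors' deposited table. Its control level was the third highest of the 35 loci, after LHCB1.2 and PSBR.

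All 5 Rubisco loci had higher values in the experiment condition, and 3 were called, beside 22.3% of all tested loci called higher. Their median log2 ratio was 3.25 in the authors' deposited table. RBCS1A (AT1G67090) had 48.7 FPKM in the experiment condition and 4.48 FPKM in control, with a log2 ratio of 3.44 at the smallest q in the authors' deposited table. It was the most abundant small subunit gene in both conditions. The 3 others lie side by side on chromosome 5. RBCS2B (AT5G38420) had 7.88 FPKM in the experiment condition and 0.831 FPKM in control and did not pass (log2 ratio 3.25, q = 0.186 in the authors' deposited table). RBCS3B (AT5G38410) had 5.74 FPKM in the experiment condition and 0.404 FPKM in control and passed, with a log2 ratio of 3.83 and q = 0.00824 in the authors' deposited table. RBCS1B (AT5G38430) had 5.7 FPKM in the experiment condition and 1.41 FPKM in control, with a log2 ratio of 2.02 and q = 0.0443 in the authors' deposited table. RCA (AT2G39730), which frees Rubisco of bound sugar phosphates, had 7.37 FPKM in the experiment condition and 1.03 FPKM in control, with a log2 ratio of 2.84 and q = 0.00078 in the authors' deposited table.

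The split between the RBCS genes of chromosome 5 is uncertain. RBCS1B, RBCS2B and RBCS3B are between 96.7% and 97.3% identical over their coding sequences, and 21.2% of the 150-base stretches of RBCS1B also occur in RBCS3B. RBCS1A, on chromosome 1, shares no 75-base stretch with them. Bases 16 to 105 of the RBCS1A coding sequence and the bases aligned to them, from RefSeq TAIR10.1, show how far RBCS1A stands from the other genes. Capitals mark the 23 of 90 positions at which the 4 genes are not all the same.
RBCS1A: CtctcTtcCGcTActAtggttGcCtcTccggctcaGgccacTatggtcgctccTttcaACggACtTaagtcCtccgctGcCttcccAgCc
RBCS1B: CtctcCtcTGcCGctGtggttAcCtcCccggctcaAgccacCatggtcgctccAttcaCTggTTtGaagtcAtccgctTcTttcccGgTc
RBCS2B: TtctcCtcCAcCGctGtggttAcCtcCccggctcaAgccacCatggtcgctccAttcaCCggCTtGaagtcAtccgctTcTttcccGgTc
RBCS3B: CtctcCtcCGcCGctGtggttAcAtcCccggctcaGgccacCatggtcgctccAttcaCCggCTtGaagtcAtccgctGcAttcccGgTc
In this stretch RBCS1B and RBCS2B each differ from RBCS1A at 20 positions and RBCS3B at 17. RBCS1B, which was not called, and RBCS3B, which was, share long identical stretches elsewhere in the coding sequence.

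The Calvin cycle genes beyond Rubisco gave little that could be read alone. PRK (AT1G32060), phosphoribulokinase, had 0.183 FPKM in the experiment condition of the authors' deposited table, was listed at 0 in control and was not tested. GAPB (AT1G42970), a subunit of the chloroplast glyceraldehyde phosphate dehydrogenase, is joined with AT1G42960 on a line with 180 FPKM in the experiment condition and 396 FPKM in control, called lower at the smallest q in the authors' deposited table. In the isoform table, where the genes are apart, GAPB itself had 1.16 FPKM in the experiment condition and 1.87 FPKM in control and did not pass (q = 0.424 in the authors' deposited table), and AT1G42960 had 319 FPKM in the experiment condition and 635 FPKM in control. PSAD2 (AT1G03130) is joined with AT1G03140, and that line was called lower, with 28.3 FPKM in the experiment condition and 45.8 FPKM in control (q = 0.00589 in the authors' deposited table). Alone, in the isoform lines of the authors' deposited table, PSAD2 had 1.73 FPKM in the experiment condition and 0.68 FPKM in control, while AT1G03140 had 45.2 FPKM in the experiment condition and 60.4 FPKM in control. GAPA1 (AT3G26650), the other dehydrogenase subunit, is joined with AT3G26720, and its own forms in the authors' deposited table summed to 4.53 FPKM in the experiment condition and 1.19 FPKM in control. In both joined lines called lower, the neighbour had the higher level in the isoform lines. Joined lines were left out of the counts whatever the level of the neighbour, so neither call was counted for the photosynthesis gene.

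**Figure D2:**
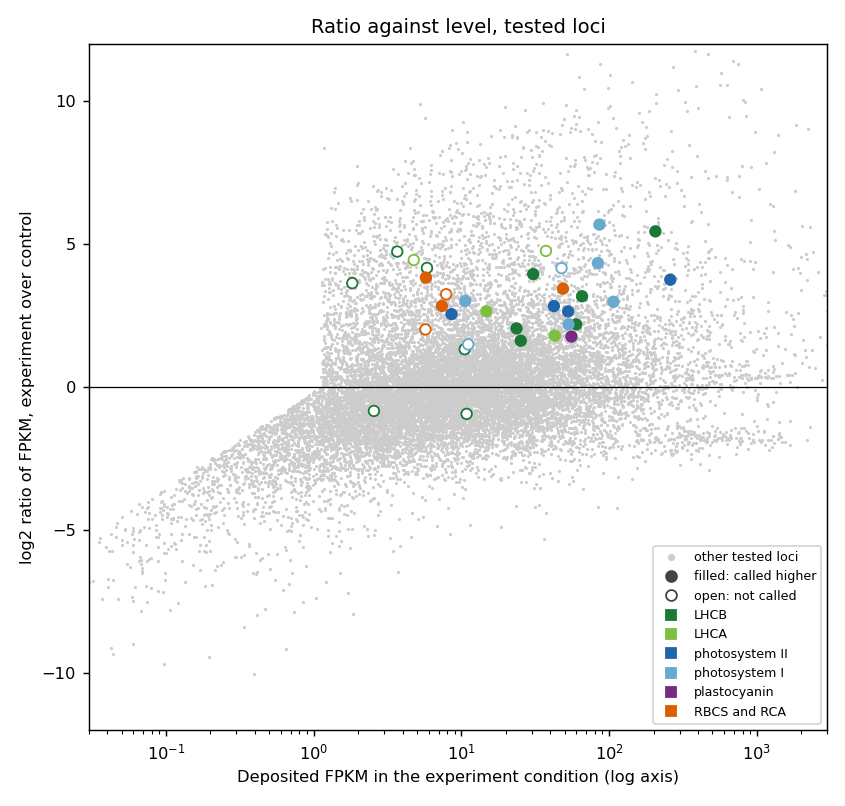
log2 ratio of deposited FPKM, experiment over control (vertical), against deposited FPKM in the experiment condition (horizontal log axis) for tested loci; coloured points are photosynthesis loci, filled where called higher, and grey points all others within the axes. The uncalled photosynthesis loci reach log2 ratios as high as 4.76 and sit mostly at lower levels.

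The loci that passed had higher median levels than those that did not, while their ratios overlapped. The 21 called loci had a median of 48.7 FPKM in the experiment condition and 5.7 FPKM in control. The 12 tested loci that were not called had a median of 6.86 FPKM in the experiment condition and 1.39 FPKM in control. Of those 12, 10 had ratios above 1, with log2 ratios between 1.32 and 4.76 in the authors' deposited table, a range that lies largely within that of the called loci, 1.62 to 5.68. The plot of ratio against level shows both.

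The isoform table tests each transcript form on its own and calls fewer. It held 67 forms of the 37 genes, of which 48 were tested, 16 were called higher (33.3%) and 1 lower, beside 9.93% higher and 6.9% lower over all 32807 tested isoforms. Summed over forms, 34 of the 37 genes had the higher value in the experiment condition, and LHCB1.2, LHCB2.3 and GAPB in control. The median log2 ratio of the sums was 2.85. The called fall was that of LHCB1.2, with 16 FPKM in the experiment condition and 28.8 FPKM in control (log2 ratio -0.84, q = 0.00718 in the authors' deposited table). So LHCB1.2, just outside the threshold in the gene table, was inside it here. Both tables called 13 genes higher, the gene table alone 8, and the isoform table alone PSAL, with 22.2 FPKM in the experiment condition and 5.73 FPKM in control (q = 0.00251 in the authors' deposited table).

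PSBR, PSAK and LHCB6 were among the 8 genes called only at the gene level, although each has 1 form. PSBR had 360 FPKM in the experiment condition and 31.9 FPKM in control in the isoform table, with q = 0.342 in the authors' deposited table. PSAK had 76.6 FPKM in the experiment condition and 14.8 FPKM in control, with q = 0.0389 in the authors' deposited table. LHCB6 had 86.9 FPKM in the experiment condition and 11.1 FPKM in control, with q = 0.024 in the authors' deposited table. Values of the 2 tables differ for single-form genes too, and no source used here says whether both came from 1 assembly.

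LHCB1.5 and LHCB1.3 had forms that were unlike in the 2 conditions. One form of LHCB1.5 had 206 FPKM in the experiment condition and was listed at 0 in control, but did not pass (q = 0.293 in the authors' deposited table), while the other had 30 FPKM in the experiment condition and 10.1 FPKM in control and passed (q = 0.00404 in the authors' deposited table). The first made up 87.3% of the gene in the experiment condition and 0% in control. For LHCB1.3 the main form had 106 FPKM in the experiment condition and 1.02 FPKM in control, and the other had 5.51 FPKM in the experiment condition and 15.3 FPKM in control; neither passed (q = 0.363 and 0.0509 in the authors' deposited table). How reads were divided among the forms was not tested. PSBP1 had 2 forms called higher, the larger with 74.1 FPKM in the experiment condition and 8.84 FPKM in control, and the other with 54.3 FPKM in the experiment condition and 7.67 FPKM in control of the authors' deposited table. The larger made up 55.7% of the gene in the experiment condition and 48.7% in control, and the other 40.9% in the experiment condition and 42.3% in control.

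**Figure D3:**
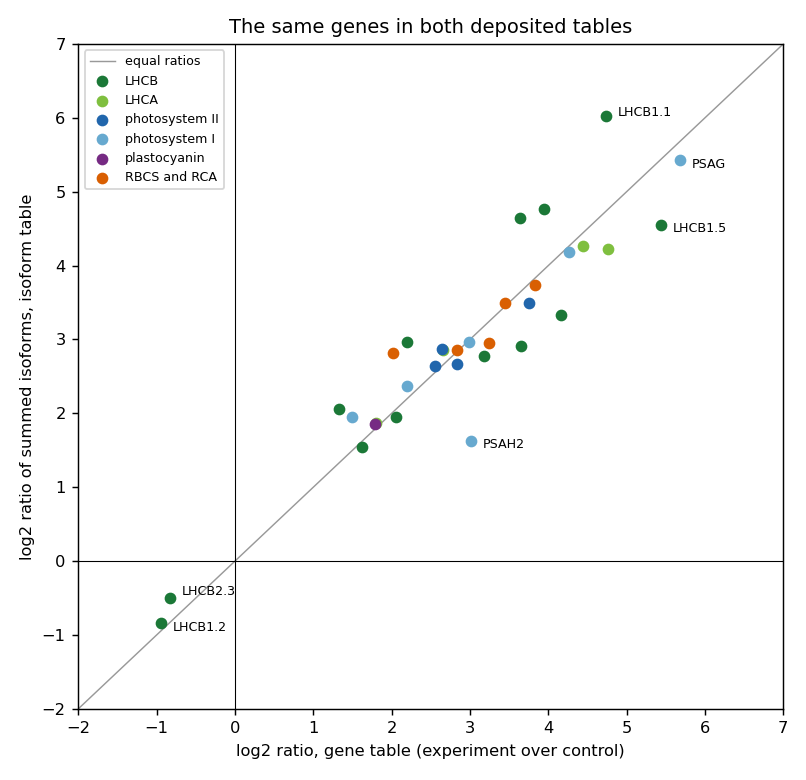
log2 ratio of experiment over control from summed isoforms (vertical) against that from the gene table (horizontal) for photosynthesis genes with values in both; the grey line marks equal ratios. LHCB1.2 and LHCB2.3 are below 0 in both tables, and PSAH2 moves most, with 3.01 in the gene table and 1.63 from isoforms.

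Promoters were compared because most of the genes moved together. The 250 bases before each RefSeq start were searched on both strands for 4 short elements known from light-regulated plant promoters or, for TATAAA, from promoters in general. That start can lie well before the locus, and bases after it were not searched. For RBCS1A, on the minus strand, the gene starts at 25049667 and the locus at 25049424 of chromosome 1. Elements nearer such a locus would be missed. The G-box core CACGTG, which HY5 and related factors can bind, was in 7 of 37 photosynthesis promoters (18.9%), in 6.15% of promoters of all genes called higher and in 6.49% of 27443 nuclear protein-coding genes. The I-box core GATAAG was in 11 (29.7%), beside 12.4% of genes called higher and 12.3% of all. CCAATC, an element noted upstream of genes that GLK factors control, was in 12 (32.4%), beside 9.67% and 10.2%. TATAAA was in 14 (37.8%), beside 50.3% of genes called higher and 47.3% of all. The first 3 elements were thus denser in the photosynthesis list. They were about as frequent among all genes called higher as among all nuclear protein-coding genes. Among the 21 called genes, 4 (19%) held the G-box core, 8 (38.1%) the I-box core, 7 (33.3%) CCAATC and 10 (47.6%) TATAAA, the last a share near that of all promoters.

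**Figure D4:**
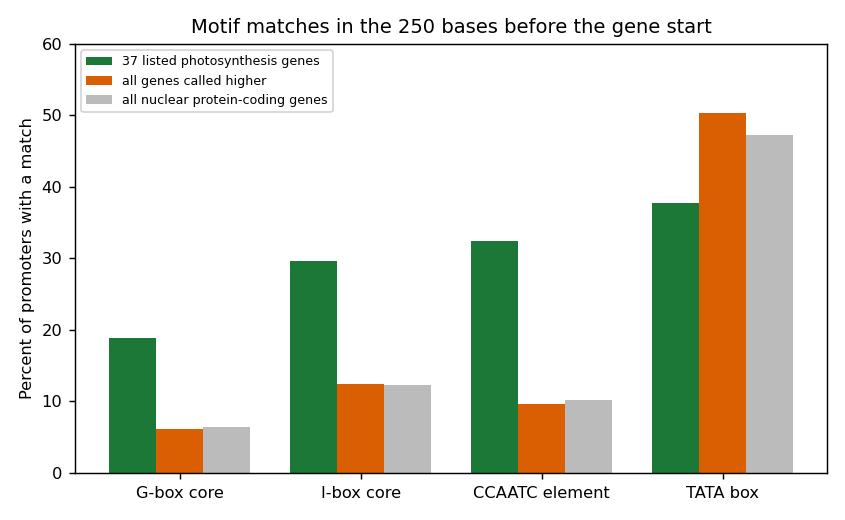
Share of promoters, 250 bases before the gene start, that hold each element on either strand (bars, percent), for the 37 photosynthesis genes, all genes called higher and all nuclear protein-coding genes. The photosynthesis bars stand above the others for the G-box core, I-box core and CCAATC, and below them for TATAAA.

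LHCB6, PSAH2 and RBCS2B were the 3 photosynthesis genes (8.11%) with both a G-box and an I-box core in this window, beside 0.922% of all promoters. Their promoters are shown to place those elements. LHCB6 and PSAH2 were called higher and RBCS2B was not. Capitals mark matches to any of the 4 elements, and CTTATC and TTTATA are the I-box core and TATAAA read on the other strand. Coordinates are those of RefSeq TAIR10.1.
LHCB6, chr1:5447881-5448130, minus strand: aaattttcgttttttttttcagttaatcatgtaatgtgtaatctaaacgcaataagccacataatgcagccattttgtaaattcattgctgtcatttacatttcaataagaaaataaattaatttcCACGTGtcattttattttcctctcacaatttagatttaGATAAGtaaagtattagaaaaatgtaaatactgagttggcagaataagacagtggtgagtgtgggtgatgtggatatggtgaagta
PSAH2, chr1:19454548-19454797, plus strand: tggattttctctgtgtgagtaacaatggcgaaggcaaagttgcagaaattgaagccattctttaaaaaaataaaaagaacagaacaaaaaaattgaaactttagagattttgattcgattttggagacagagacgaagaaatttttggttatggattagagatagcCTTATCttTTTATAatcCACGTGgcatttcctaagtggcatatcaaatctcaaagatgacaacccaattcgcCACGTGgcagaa
RBCS2B, chr5:15382072-15382321, minus strand: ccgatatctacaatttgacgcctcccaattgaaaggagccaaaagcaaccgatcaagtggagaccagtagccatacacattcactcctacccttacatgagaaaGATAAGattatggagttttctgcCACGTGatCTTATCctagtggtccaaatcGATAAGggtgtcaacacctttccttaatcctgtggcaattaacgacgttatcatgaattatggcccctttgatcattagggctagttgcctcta
The G-box core begins 124 bases before the start in LHCB6 and 123 in RBCS2B, and PSAH2 has 2, at 67 and 12. RBCS2B has I-box cores on both sides of its G-box core, at 146, 115 and 94 bases. In LHCB6 the I-box core begins at 86 bases, nearer the start than the G-box core, and in PSAH2 at 84 on the other strand, farther from it. A match is a stretch of letters and was not tested for binding.

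Comparison lists covered the rest of the photosynthetic apparatus. Of 16 other tested antenna and photosystem loci 8 (50%) were called higher, beside 22.3% over all tested loci, and 0 lower (also 0 lower at an unadjusted p under 0.05 here, in chlorophyll synthesis and in the Calvin cycle), with a median log2 ratio of 3.09 in the authors' deposited table. PSBX, a small photosystem II subunit, had 398 FPKM in the experiment condition and 124 FPKM in control of the authors' deposited table. Its locus also covers AT2G06510 and AT2G06530, and that of PSAE2, below, covers AT2G20270 and AT2G20280. The part of these neighbours in the values was not tested. PSBQ1, which sits beside PSBP on the water-splitting side, had 33.9 FPKM in the experiment condition and 1.91 FPKM in control of the authors' deposited table. PSBW, also of photosystem II, had 31.8 FPKM in the experiment condition and 4.19 FPKM in control, and CURT1B, which bends thylakoid membranes, had 27.9 FPKM in the experiment condition and 7.59 FPKM in control of the authors' deposited table. PSBS, the sensor of excess light, did not pass, with 35.1 FPKM in the experiment condition and 30.3 FPKM in control (q = 0.443 in the authors' deposited table), and PSAE2 at 29.6 FPKM in the experiment condition and 3.48 FPKM in control did not either (q = 0.35 in the authors' deposited table).

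Electron transport and ATP synthase genes had smaller ratios. Of 10 tested loci 5 (50%) were called higher, beside 22.3% over all, and 0 lower, with a median log2 ratio of 1.18 in the authors' deposited table. Of the leaf-type ferredoxins, FD1 had 594 FPKM in the experiment condition and 317 FPKM in control, and FD2 had 293 FPKM in the experiment condition and 106 FPKM in control of the authors' deposited table. Of the cytochrome complex, PETM had 30.1 FPKM in the experiment condition and 10.8 FPKM in control, and PETC had 26.1 FPKM in the experiment condition and 3.45 FPKM in control of the authors' deposited table. LFNR2, a leaf-type ferredoxin reductase, was the 1 locus lower at an unadjusted p under 0.05, with 0.574 FPKM in the experiment condition and 2.52 FPKM in control (log2 ratio -2.13, q = 0.0274 in the authors' deposited table), and is named after its values were seen. ATPD (62.1 FPKM in the experiment condition, 47.7 FPKM in control) and ATPG (36.2 FPKM in the experiment condition, 22.4 FPKM in control) did not pass, at q = 0.14 and 0.0145 in the authors' deposited table. The root-type ferredoxin FD3 and the root-type reductases RFNR1 and RFNR2, which pass electrons to ferredoxin in non-green plastids, gave 0 Cuffdiff calls in either direction, with 1 at an unadjusted p under 0.05 (RFNR1). FD3 had 915 FPKM in the experiment condition and 755 FPKM in control, RFNR2 had 113 FPKM in the experiment condition and 101 FPKM in control, and RFNR1 had 46.3 FPKM in the experiment condition and 66.7 FPKM in control (q = 0.193, 0.497 and 0.0219 in the authors' deposited table).

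Chlorophyll synthesis had 6 of 12 tested loci (50%) called higher, beside 22.3% over all tested loci, and 0 lower, with a median log2 ratio of 1.34 in the authors' deposited table. HEMA1, the first committed enzyme of the tetrapyrrole path, had 22.7 FPKM in the experiment condition and 6.14 FPKM in control, and its sister HEMA2 had 7.99 FPKM in the experiment condition and 3.11 FPKM in control of the authors' deposited table. CHLM, a methyltransferase, had 16.8 FPKM in the experiment condition and 7.55 FPKM in control, and CHLH, a magnesium chelatase subunit, had 8.66 FPKM in the experiment condition and 3.49 FPKM in control of the authors' deposited table. CHLI1 (13.8 FPKM in the experiment condition, 9.22 FPKM in control) and CRD1 (15.6 FPKM in the experiment condition, 2.62 FPKM in control) did not pass, at q = 0.0879 and 0.0209 in the authors' deposited table. The CHLI1 locus also covers AT4G18465, and the CRD1 locus AT3G56950. Of the Calvin cycle genes outside the list, 3 of 8 tested (37.5%) were called higher and 0 lower, beside 22.3% and 21.2% over all tested loci, with a median log2 ratio of 0.85 in the authors' deposited table. CP12-1, a redox switch of GAPDH and PRK, led with 124 FPKM in the experiment condition and 12.6 FPKM in control of the authors' deposited table. RPI3 had 32.9 FPKM in the experiment condition and 20.5 FPKM in control, and RPE had 12.5 FPKM in the experiment condition and 6.14 FPKM in control of the authors' deposited table. The RPI3 locus also covers AT3G04800. PDTPI (129 FPKM in the experiment condition, 125 FPKM in control) and TKL1 (73.2 FPKM in the experiment condition, 80.7 FPKM in control), enzymes with uses outside the Calvin cycle, did not pass, at q = 0.862 and 0.526 in the authors' deposited table.

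Among 13 tested regulators of light response and greening, 4 (30.8%) were called higher and 0 lower (1 lower at an unadjusted p under 0.05, PHYA), a share near the 22.3% over all tested loci, with a median log2 ratio of 0.52 in the authors' deposited table. GLK2, an activator of nuclear photosynthesis genes, had 22.8 FPKM in the experiment condition and 4.87 FPKM in control, a log2 ratio of 2.23 in the authors' deposited table. HYH, the close relative of HY5, had 308 FPKM in the experiment condition and 58.6 FPKM in control of the authors' deposited table. GUN1, a plastid protein of signalling to the nucleus, had 17.3 FPKM in the experiment condition and 6.82 FPKM in control, and the red-light receptor PHYB had 7.4 FPKM in the experiment condition and 3.65 FPKM in control of the authors' deposited table. HY5 itself had 72.5 FPKM in the experiment condition and 50.6 FPKM in control and did not pass (q = 0.0424 in the authors' deposited table), and PHYA had 14.3 FPKM in the experiment condition and 21.2 FPKM in control (q = 0.0161 in the authors' deposited table). Of the 10 plastid-encoded genes looked up, 3 had a line of their own: PSBA, PSAA and PSAB. Of these 0 were called, at unadjusted p of 0.148, 0.304 and 0.832 in the authors' deposited table. The PSBA and PSAB lines both span bases 1 to 39579 of the plastid genome, far beyond either gene. The other genes, such as RBCL, were on lines that join several genes, so plastid genes could hardly be read singly.

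**Figure D5:**
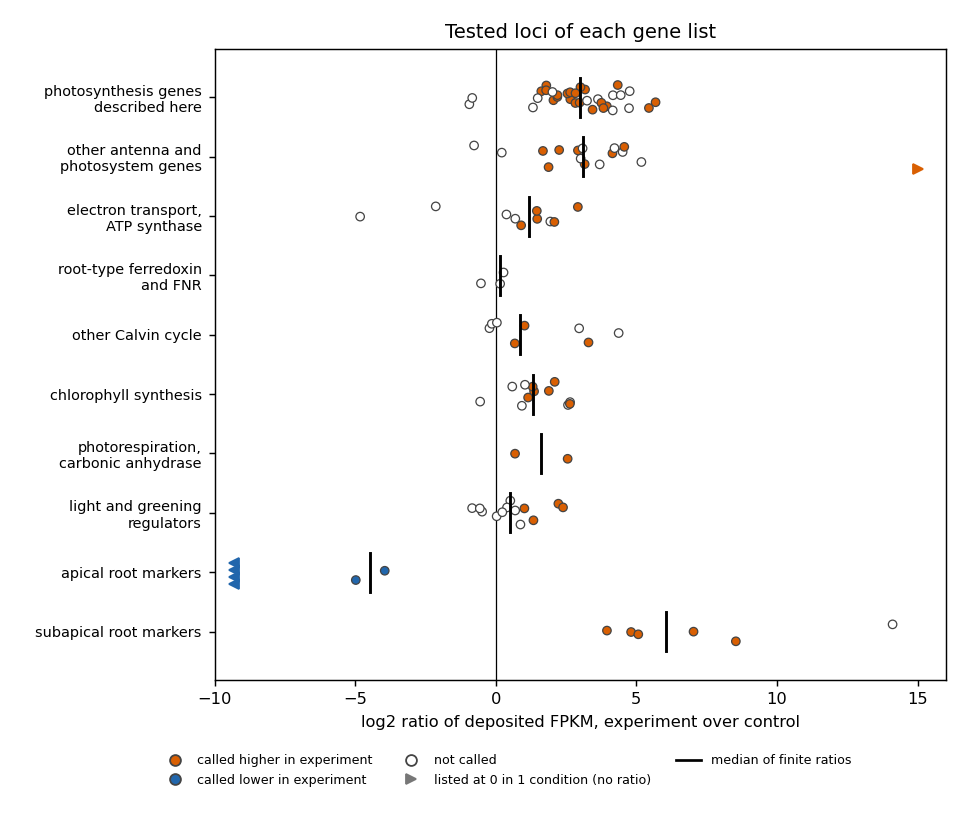
log2 ratio of deposited FPKM, experiment over control (horizontal), for tested loci of the photosynthesis list and of comparison lists. The plastid-encoded genes and the shoot markers are not drawn. Orange was called higher and blue lower, and bars mark medians of finite ratios. Triangles near the edges stand for loci listed at 0 in 1 condition, which have no ratio. The root-type ferredoxin and reductase genes lie near 0, and the apical and subapical root markers on opposite sides.

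Markers of other tissues were read beside these values. Of 11 shoot and leaf epidermis markers, 0 were called, 1 was tested, and the highest level in the experiment condition was 2.16 FPKM (KNAT1, q = 0.243 and unadjusted p = 0.18 in the authors' deposited table). KNAT1 had 0.0289 FPKM in control. YAB1, TGG1 and CER6 had 0.0616, 0.129 and 0.192 FPKM in the experiment condition and were listed at 0 in control. STM was listed at 0 in the experiment condition and at 0.547 FPKM in control. YAB3, YAB5, FAMA, SPCH, KAT1 and TGG2 were listed at 0 in both conditions of the authors' deposited table. All 6 markers of the root apex were called lower, beside 21.2% of all tested loci. KNOLLE, of dividing cells, had 2.29 FPKM in the experiment condition and 72.1 FPKM in control of the authors' deposited table. PLT1 and PLT2, of the stem cell niche, were listed at 0 in the experiment condition of the authors' deposited table. Of 6 markers of subapical root, 5 were called higher, beside 22.3% of all tested loci. Among them were the hair cell genes EXPA7 (221 FPKM in the experiment condition, 1.69 FPKM in control) and LRX1 (168 FPKM in the experiment condition, 0.454 FPKM in control) of the authors' deposited table. CASP1, of the endodermis, had 2482 FPKM in the experiment condition and 0.14 FPKM in control and was not called (q = 0.273 in the authors' deposited table). Summed over each list, the shoot markers came to 2.54 FPKM in the experiment condition and 0.576 FPKM in control, the apical markers to 3.1 FPKM in the experiment condition and 110 FPKM in control, and the subapical markers to 3045 FPKM in the experiment condition and 11.7 FPKM in control of the authors' deposited table. CASP1, whose locus also covers AT2G36090, made up most of the last sum, and the other 5 subapical markers came to 563 FPKM in the experiment condition and 11.6 FPKM in control of the authors' deposited table. Subapical root markers were thus higher and apical root markers lower in the experiment condition, in which the photosynthesis genes were higher, and the part of cell makeup in their values was not tested.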

How the data were processed

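RNA-seq of 6 root libraries, 3 per zone, was analysed from a gene table and an isoform table of the authors' comparison. Sample titles gave the groups. The authors aligned, assembled and compared with TopHat, Cufflinks and Cuffdiff on TAIR10, per the submitters' processing notes; no version is given in the sources used here. Per the file headers, each deposited line holds a value for control and for experiment, the log2 ratio, a test statistic (a score), a p-value and a q-value. The headers name no unit for the condition values; Cuffdiff writes FPKM, and the deposited values are read as FPKM. The deposited ratio equals log2 of experiment over control FPKM, and the deposited q-value was checked to equal the Benjamini-Hochberg adjustment over tested loci (largest relative difference 4.9e-06 for genes, 4.96e-06 for isoforms). A call is a deposited q under 0.01, as in the authors' significance column. No test was added, since the tables hold no value per library, so the depth of each library, and with it the precision, is unknown.

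A locus is a deposited line with a stretch of coordinates, which lines can share, as for PSAD1 and LHCA3. Of 33233 loci, 1021 name more than 1 gene. Loci were matched to genes by identifier, and all 37 photosynthesis genes were in the RefSeq TAIR10.1 table. Coordinates of loci are those of the deposited files on TAIR10, counted from 1. Sequences, coding identities, shared stretches and promoters were computed from RefSeq TAIR10.1 with Biopython 1.88, and tables with Python 3.11.15, pandas 2.3.3 and numpy 2.4.6. Figures used matplotlib 3.10.9. Reading and counting of calls were tested on simulated data.

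All photosynthesis genes were named, and of each comparison list up to 4 called and 2 uncalled loci of highest mean level, every called regulator, shoot marker and plastid-encoded gene, and any called gene against its list. PETE1, GLK1 and LFNR2 were named after their values were seen, as were the shoot markers listed at 0 and the genes that share loci with photosynthesis genes. The photosynthesis genes and comparison lists were chosen with earlier results of these data known. Alternatives were other q thresholds, a minimum of 1 FPKM, pseudocounts of 1 and 0.1, rescaling by the median, the isoform table, and leaving out near-identical copies, or adding joined loci.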

Additional observations from a re-analysis of the deposited data

How the results depend on the processing

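The direction of the photosynthesis list did not reverse under any alternative run. The 21 loci called higher became 24 at q under 0.05 (27.8% of all tested loci were called higher there) and 16 at q under 0.001 (17.6% of all), and 18 of 23 without the LHCB1, LHCB2 and chromosome 5 RBCS genes. Leaving out loci that cover another coding gene, an alternative chosen after seeing the data, left 13 called of 22 tested. Over all tested loci, 22.3% were called higher at the main threshold. Loci called lower numbered 0, but 1 at q under 0.05 (LHCB1.2) and 2 with joined loci, those of PSAD2 with AT1G03140 and of GAPB with AT1G42960. The median log2 ratio of 2.98 became 2.24 with 1 FPKM added to each value, 2.92 with 0.1 added, 3.06 after subtracting the median of all tested loci and 2.85 from summed isoforms. It was 2.91 without loci that cover another coding gene and 3.00 with untested loci, both alternatives chosen after seeing the data. With 1 FPKM added and from summed isoforms, the medians were 1.96 and 2.91 for LHCB, 2.24 and 3.54 for LHCA, 2.58 and 2.77 for photosystem II, 2.89 and 2.37 for photosystem I, 1.73 and 1.86 for plastocyanin, and 2.26 and 2.95 for RBCS and RCA. No paired analysis was possible because the tables hold 1 value per condition and no column per library; for the same reason no library could be left out. Since no counts are in the tables, the depth behind loci under 1 FPKM is unknown.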

Other observations

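Photorespiration, which recycles the product of Rubisco's reaction with oxygen, had 2 tested loci. Both were called higher in the authors' deposited table, beside 22.3% of all tested loci. SHM1, a mitochondrial serine hydroxymethyltransferase, had 45.1 FPKM in the experiment condition and 7.67 FPKM in control, with a log2 ratio of 2.56 in the authors' deposited table. GLDP1, a subunit of glycine decarboxylase, had 20.6 FPKM in the experiment condition and 12.8 FPKM in control, with a log2 ratio of 0.69 in the authors' deposited table. The peroxisomal glycolate oxidase genes GOX1 and GOX2 and the carbonic anhydrase gene CA1 were under 1 FPKM in both conditions and were not tested.

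PETE1, the minor plastocyanin gene, did not share the direction of PETE2. It had 0.085 FPKM in the experiment condition and 2.4 FPKM in control, with a log2 ratio of -4.82 that did not pass (q = 0.224 in the authors' deposited table). GLK1, the partner of GLK2, had 0.771 FPKM in the experiment condition and 0.261 FPKM in control and was not tested, so of the GLK pair GLK2 was the one tested.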
